A study of Mus musculus with 30 samples.

Results

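The comparison described here is DIO callus on d14 against DIO callus on d10 after fracture, over all genes of the count table. DIO mice are mice made obese by a high-fat diet. The comparison was defined by its libraries, 3 of d14 and 3 of d10, which are 6 of the 30 libraries of the series, and each library is from the callus of 1 mouse. Of the 43629 genes in the table, 16995 passed the filter on low counts and were tested.

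The series followed tibial fracture healing in lean and DIO mice by RNA-seq of the callus. All mice were male C57BL/6J, and both groups used here were DIO mice of the same source. They had been fed a high-fat diet with 60 percent of its energy from fat from 6 weeks of age, were bought at 18 weeks of age, acclimated for 2 weeks and stayed on this diet until harvest, so d10 and d14 mice shared strain, sex, diet and surgery and differed by the day of harvest. The fracture was an open osteotomy at the middle of the right tibia, held by an intramedullary nail. Soft tissue around the callus was removed and the intact bone was avoided, so the RNA comes from a mixture of callus cells, in which fewer cells of a type and less RNA per cell cannot be told apart. Libraries were made from polyadenylated RNA with a stranded kit. DIO calli of d3, d5, d7 and d21, also 3 mice each, entered the same fit. The calli of lean mice were used only in 1 alternative, and lean calli of d14 were not analysed here.

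A tibial fracture held by a nail heals largely through cartilage. Chondrocytes lay down a collagen II and aggrecan matrix, enlarge, and are replaced by woven bone while vessels, osteoclasts and blood-forming marrow move into the callus. Marrow stromal cells that make CXCL12 are known to hold B-cell progenitors and stem cells in this niche, and the same stromal lineage can give rise to marrow adipocytes.

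Between d10 and d14, genes of B cells rose in DIO callus, among them 7 of 23 on the B-lineage list, as did the pan-leukocyte gene Ptprc, the stromal chemokine gene Cxcl12 and the adipocyte genes Adipoq and Pparg. Among the genes that fell were 6 of 36 cartilage genes and the muscle genes Myh7 and Tnnc1. In edgeR's quasi-likelihood test, 129 of the 16995 genes changed at an adjusted p under 0.05, which is 0.759% of the genes tested. Of these, 99 were higher on d14 (0.583%) and 30 were lower (0.177%). The median log2 fold change was 1.3 over the 99 genes that rose and -2.1 over the 30 that fell, beside -0.00396 over all genes tested. All 99 genes that rose had the 3 d14 mice above the 3 d10 mice, as did 29 of the 30 that fell in the other direction, the exception being Coro1b. Such non-overlap was common, since 3831 genes or 22.5% of those tested had it, 2351 with d14 above and 1480 with d14 below.

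The number of genes called rested on single mice. With mice numbered by the biological repeat in the labels, it was 0 without d10 mouse 3, 1 without d14 mouse 1, 1 without d14 mouse 2 and 2 without d10 mouse 2, while it was 152 without d10 mouse 1 and 459 without d14 mouse 3. With any of the 6 mice left out, all 129 genes kept their direction and an unadjusted p under 0.05. The genes had been chosen on these same mice, and in those without overlap leaving a mouse out could not turn the direction. DESeq2 called 552 genes, of which 127 were among the 129, and a fit of all 30 libraries called 2. Before adjustment 3006 genes had a p under 0.05, 1811 higher and 1195 lower. Fold changes and non-overlap are therefore given below beside each call.

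**Figure D1:**
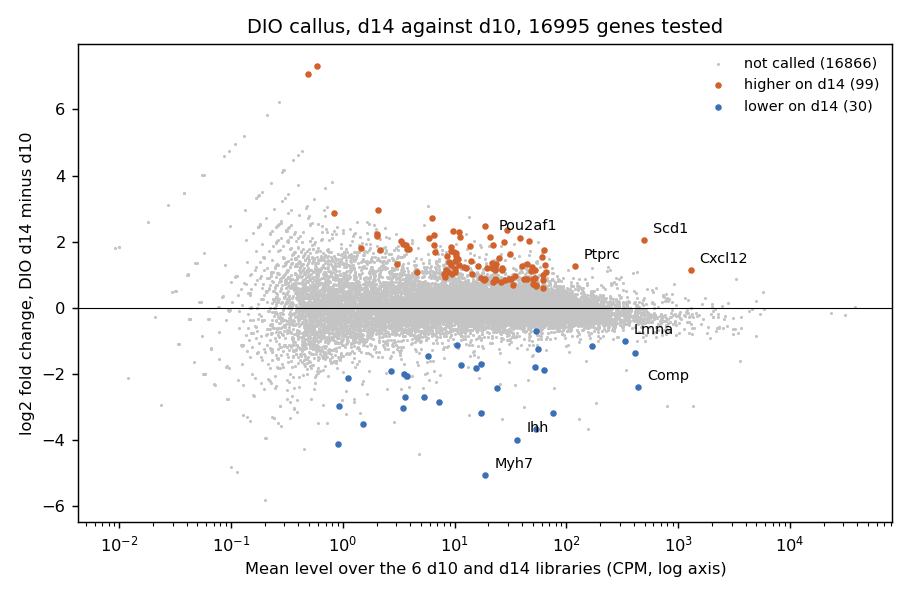
Each point is 1 of 16995 genes, with its mean level over the 6 libraries of d10 and d14 (CPM, counts scaled to library size with TMM factors, log axis) and its log2 fold change, d14 minus d10. Orange points are the 99 genes called higher on d14 and blue points the 30 called lower. Genes that fell reached larger fold changes at moderate levels, such as Myh7 and Ihh.

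Each library held between 13247122 and 18854426 counts, with the 3 d14 libraries deeper than the 3 d10 libraries. On the first principal component of the 18 DIO libraries, which held 48.9% of the variance, d10 mice lay between -5.65 and -2.82, d14 mice between -55.3 and -39.7 and d21 mice between -121 and -77.7. Bone collagen transcripts marked the tissue as callus, with Col1a1 (collagen I) at 38090, 33690 and 28630 CPM on d10 and 29330, 19640 and 38110 CPM on d14. The d14 mice differed from each other in blood and muscle. The summed level of 19 erythroid genes was 5415, 14170 and 4443 CPM in d14 mice 1, 2 and 3 (2372, 5567 and 5285 CPM on d10). The sum of 24 adult skeletal muscle genes was 18430, 43380 and 8436 CPM (35540, 43150 and 32200 CPM on d10). The part of either in the results below was not tested, and values without d14 mouse 2 are given with the B-lineage, muscle, erythroid and cell cycle lists.

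The B lineage had the highest median of the 40 gene lists. All 23 tested genes of the B-lineage list were higher on d14, with a median log2 fold change of 1.88. Of the 23, 7 were called, beside 0.583% of all genes called in this direction. No overlap was found in 19 of the 23, beside 2351 of all 16995 genes with d14 above. Summed over the list, the level was 462, 560 and 430 CPM in the d10 mice and 1063, 1649 and 1106 CPM in the d14 mice. Without d14 mouse 2 the median was 1.57 with 23 of 23 genes higher and 1 called, and without d10 mouse 3 it was 1.69 with 0 called.

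Pou2af1, which encodes the B-cell coactivator OBF-1 (chromosome 9, 51213708 to 51240080, GRCm38), had the smallest p-value of all genes. Its level was 7.18, 8.55 and 7.11 CPM in the d10 mice and 24.3, 47.0 and 29.7 CPM in the d14 mice. The lowest d14 mouse was well above the highest d10 mouse. The mean rose from 7.61 ± 0.812 CPM to 33.67 ± 11.85 CPM (SD, n = 3 each), a log2 fold change of 2.14 with a standard error of 0.25 (edgeR adjusted p = 0.00248). This call held in 15 of the 17 alternatives, all but the fit of 30 libraries and the fit without d10 mouse 3 (adjusted p of 0.116 and 0.0512 by edgeR).

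For 2 of the genes that rose in the B lineage, the promoter window of RefSeq (GRCm38.p6, 250 bases before to 50 bases after the gene's start) is shown because it carries motifs searched for here. Capitals mark any of 11 motifs on either strand, which are overlapping CCAAT boxes on the 2 strands and an E2F motif in Pou2af1 (chr9:51213440-51213739, plus strand) and a RUNX motif in Tnfrsf13c (chr15:82224331-82224630, minus strand).
Pou2af1: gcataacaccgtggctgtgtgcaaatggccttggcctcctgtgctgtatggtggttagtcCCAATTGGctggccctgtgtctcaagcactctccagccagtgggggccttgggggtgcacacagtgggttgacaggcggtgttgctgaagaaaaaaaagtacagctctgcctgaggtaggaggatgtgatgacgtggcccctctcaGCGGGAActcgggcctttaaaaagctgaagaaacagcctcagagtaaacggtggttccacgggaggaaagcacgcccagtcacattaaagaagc
Tnfrsf13c: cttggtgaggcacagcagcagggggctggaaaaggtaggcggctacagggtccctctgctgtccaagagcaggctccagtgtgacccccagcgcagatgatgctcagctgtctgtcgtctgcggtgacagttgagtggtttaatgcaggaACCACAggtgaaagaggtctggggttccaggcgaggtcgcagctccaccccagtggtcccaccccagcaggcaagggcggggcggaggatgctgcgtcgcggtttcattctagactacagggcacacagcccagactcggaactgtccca

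RUNX letters (TGTGGT) were in 20.8% of the 77 windows of genes called higher, in 11.1% of the 18 windows of genes called lower and in 13.1% of the 12057 windows of tested genes. The CCAAT box was in 36.4%, 33.3% and 38.1% of them, and E2F letters (TTCCCGC) were in 5.19%, 0.0% and 7.99%. The TATA box (TATAAA), in neither window shown, was in 16.9%, 5.56% and 7.79%. A match is a description of these letters only. Of the 129 called genes, 95 had a window.

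Both signalling chains of the B-cell receptor rose. Cd79a was at 13.1, 19.9 and 10.3 CPM on d10 and 41.4, 82.9 and 62.2 CPM on d14, a log2 fold change of 2.11 ± 0.40 (SE, edgeR adjusted p = 0.0304). Its partner Cd79b, chosen after its values were seen, was at 26, 36.8 and 23.4 CPM and then 69.4, 132 and 90.9 CPM (1.76 ± 0.36, edgeR adjusted p = 0.0355). In both genes every d14 mouse exceeded every d10 mouse, and mouse 2 was the highest on d14. Ighd, the constant region of IgD carried by mature naive B cells, was at 20.8, 19.9 and 13.7 CPM and rose to 64.8, 87.2 and 68.8 CPM (2.02 ± 0.40, edgeR adjusted p = 0.0339). A stretch of 298 bases of the Cd79a transcript is nearly identical in Gm32220, so its reads could have been shared.

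Transcription factors of the lineage rose with the receptor. Spib, an ETS factor of B cells and plasmacytoid dendritic cells, went from 9.72, 13.4 and 5.63 CPM to 36.3, 79.7 and 31.8 CPM (2.36 ± 0.48, edgeR adjusted p = 0.0355). Irf4, which drives B-cell activation and plasma cell fate, went from 4.55, 3.69 and 4.15 CPM to 13.4, 29 and 12.6 CPM (2.15 ± 0.45, edgeR adjusted p = 0.0386). Ikzf3, the lymphoid zinc finger factor Aiolos, rose likewise (2.1 ± 0.44, edgeR adjusted p = 0.0374). Bach2, which restrains plasma cell differentiation and was chosen after its values were seen, rose by 1.56 ± 0.32 (edgeR adjusted p = 0.0355). Each had no overlap between the days.

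Further B-cell genes were called. Tnfrsf13c, the receptor for the survival factor BAFF, was within 2.61 to 2.93 CPM in the d10 mice and at 7.96, 14.9 and 8.11 CPM in the d14 mice (1.91 ± 0.30, edgeR adjusted p = 0.0227). Fam129c, a gene active in B cells, rose from 4.55, 8.26 and 4.15 CPM to 21.7, 55.4 and 17.3 CPM (2.47 ± 0.44, edgeR adjusted p = 0.026), but 21.8% of its exonic bases are shared with Pgls on the same strand. Further called genes, chosen after their values were seen, were Blk (1.88), a B-cell kinase, Fcer2a (1.85), the low-affinity IgE receptor CD23, the inhibitory receptors Siglecg (2.00), Cd22 (1.52) and Cd72 (1.28), the BAFF and APRIL receptor Tnfrsf13b (1.42), Fcrl1 (1.41), and H2-Ob (1.89) and H2-DMb2 (1.67), which take part in loading MHC class II (log2 fold changes). Cd72 shares 41.6% of its exonic bases with Tesk1 on the opposite strand, and H2-DMb2 has a near-identical copy in H2-DMb1. Klhl14, whose level was also noticed after the test, had 0 counts in all 3 d10 mice and 18, 21 and 13 counts on d14, at least 14.3-fold higher with a floor of 3 counts over the d10 group.

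Early B-cell genes, chosen after their values were seen, also stood higher but were not called. The recombinase gene Rag1 had a log2 difference of 3.08 with an edgeR adjusted p = 0.0504, and for Vpreb3 and Igll1, chaperone and surrogate light chain of the pre-B receptor, it was 2.03 and 1.61. Il7r, the receptor for the lymphoid growth factor IL-7, was called with 5.40, 4.27 and 3.24 CPM on d10 against 11.8, 22.0 and 9.06 CPM on d14 (1.73 ± 0.34, edgeR adjusted p = 0.0339, chosen after its values were seen). Of 6 tested plasma cell genes only Irf4 was called, and the list's median was -0.0165.

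**Figure D2:**
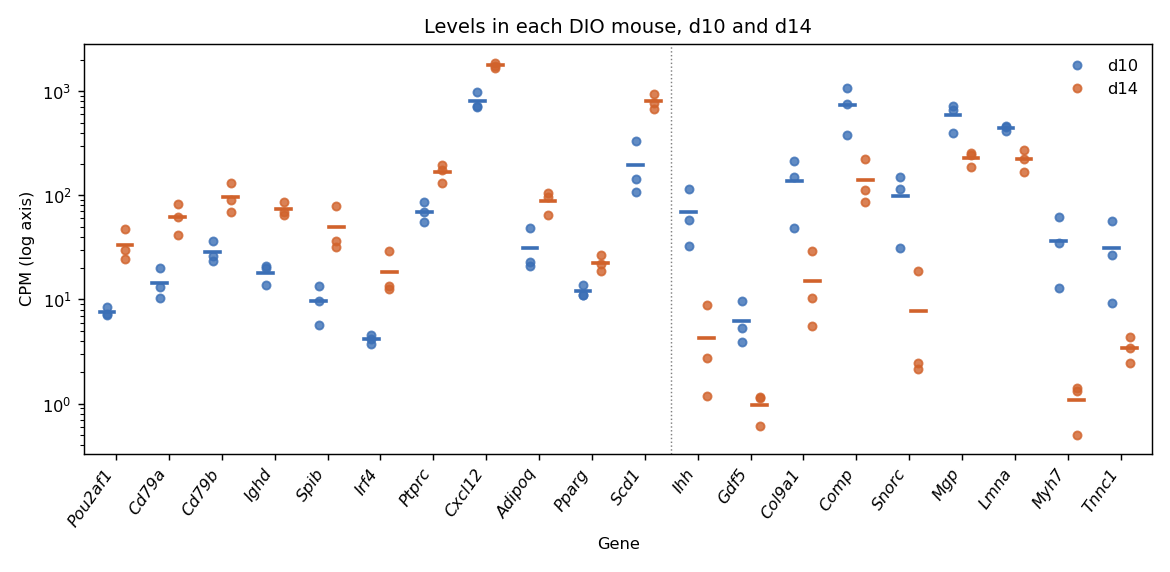
Level of 20 called genes in each DIO mouse (CPM, log axis), d10 in blue and d14 in orange, with 1 point per mouse and a bar at the mean of 3. The 11 genes left of the dotted line rose and the 9 right of it fell, and in none of the 20 do the d10 and d14 mice overlap.

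Ptprc and Adgre4, which are not on the B-lineage list, also rose. Ptprc, which encodes the pan-leukocyte antigen CD45 that B cells carry too, was at 86.1, 54.8 and 68.5 CPM on d10 and 177, 196 and 131 CPM on d14 (1.27 ± 0.25, edgeR adjusted p = 0.035). Adgre4, a receptor of macrophages, rose from 4.94, 2.1 and 2.67 CPM to 18, 17.1 and 13.3 CPM (2.32 ± 0.39, edgeR adjusted p = 0.0232). The days did not overlap in either gene. Called genes chosen after their values were seen included the lymphocyte receptor Slamf6 (1.69), the adhesion regulator Cytip (1.63), the integrin Itga4 (1.32) that binds VCAM-1, the peptidase CD26 gene Dpp4 (1.49), and the innate sensors Aim2 (1.2), Tlr8 (1.77) and Naip6 (1.70), the last with a near-identical copy in Naip5. Sele, the endothelial selectin that captures leukocytes, rose by 1.75 (all log2 fold changes, edgeR adjusted p between 0.0232 and 0.0453).

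No T-cell, neutrophil, monocyte or dendritic cell list had a called member. Of 21 T and NK cell genes 20 were higher on d14, with a median of 0.623. Of the 21, 12 did not overlap, beside 2351 of all 16995 genes with d14 above. The summed level was 78.9, 85.9 and 63.1 CPM on d10 and 112, 130 and 116 CPM on d14. Lck, the kinase of the T-cell receptor, was at 4.63, 10.7 and 5.70 CPM against 12.2, 15.4 and 11.5 CPM (0.89, edgeR adjusted p = 0.258). The chemokine Ccl5 differed by 0.49 (edgeR adjusted p = 0.41) and the cytokine Tnf by 1.69 (edgeR adjusted p = 0.302). All 16 dendritic cell and MHC class II genes were higher, with a median of 0.644 and 8 without overlap. Medians were 0.61 for 10 neutrophil precursor genes, 0.177 for 15 mature neutrophil genes and 0.196 for 20 monocyte and macrophage genes. Nearest to the threshold on these lists were Ccr2, the chemokine receptor of inflammatory monocytes (1.24 ± 0.29, edgeR adjusted p = 0.0526), Cxcr2, a chemokine receptor of neutrophils (1.19 ± 0.30, edgeR adjusted p = 0.0706), and Csf3r, the G-CSF receptor (1.19 ± 0.31, edgeR adjusted p = 0.0747).

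Stromal Cxcl12 rose in all d14 mice. This chemokine, which retains blood progenitors in the marrow, was at 984, 704 and 729 CPM in the d10 mice and at 1885, 1765 and 1672 CPM in the d14 mice (1.14 ± 0.20, edgeR adjusted p = 0.0232). The groups were well apart, and the d14 mice lay close together. Of 15 genes of skeletal progenitors and marrow stroma 2 were called, Cxcl12 and Adipoq, beside 0.583% of all genes called higher. Of the 15, 12 were higher and the median was 0.642. Lepr, the leptin receptor that marks this stroma, was at 50.6, 34.8 and 53.6 CPM against 100, 63.1 and 72.3 CPM and was not called (0.76 ± 0.31, edgeR adjusted p = 0.209), nor was the adhesion ligand Vcam1 (0.67 ± 0.20, edgeR adjusted p = 0.107). Among 21 chemokines and inflammatory cytokines, Cxcl12 was the only one called.

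Adipocyte genes rose together in direction, with 2 of 16 called, beside 0.583% of all genes called higher. All 16 were higher on d14, with a median of 0.925. Of these, 13 did not overlap, beside 2351 of all 16995 genes with d14 above. Adipoq, the adipocyte hormone adiponectin, was at 49, 22.7 and 20.9 CPM on d10 and at 65.0, 106 and 96.7 CPM on d14 (1.53 ± 0.35, edgeR adjusted p = 0.0496). Pparg, the regulator of adipocyte differentiation, went from 11.1, 13.8 and 10.9 CPM to 18.6, 21.9 and 26.7 CPM (0.91 ± 0.20, edgeR adjusted p = 0.0464). Both calls sat at the threshold and were kept in 6 of 17 alternatives. Scd1, a desaturase of fatty acid synthesis that was on none of the lists, rose more, from 333, 143 and 108 CPM to 770, 951 and 674 CPM (2.04 ± 0.32, edgeR adjusted p = 0.0227), and its call held in 12 of 17. The adipokine Cfd (1.73, edgeR adjusted p = 0.147) and the lipid droplet gene Plin1 (1.42, edgeR adjusted p = 0.304) were not called, and d10 mouse 1 stood above the other d10 mice in both and in Adipoq and Scd1.

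Cartilage transcripts fell. Of 6 cartilage collagens, 16 matrix genes and 14 chondrocyte regulators, 6 genes were called lower and none higher, beside 0.177% of all genes called lower, and 35 of the 36 had a lower mean on d14. The medians were -3.08, -2.64 and -0.995. The 6 collagens summed to 5084, 9061 and 6305 CPM on d10 and to 3681, 2537 and 4619 CPM on d14, so their sum fell less than their median. The 16 matrix genes summed to 918, 2417 and 1725 CPM on d10 and to 271, 244 and 546 CPM on d14. Without d14 mouse 3, which kept the most cartilage RNA on d14, the median of the collagens was -4.02 with 4 called, and without d10 mouse 2, the highest on d10, it was -2.54 with 0 called.

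Among the called cartilage genes the largest fall was in Ihh, Indian hedgehog, the signal from prehypertrophic chondrocytes that governs the pace of hypertrophy (chromosome 1, its promoter window at chr1:74951623-74951922, minus strand, GRCm38.p6). Its level was 32.6, 115 and 57.8 CPM in the d10 mice and 2.71, 1.19 and 8.91 CPM in the d14 mice. Every d14 mouse was below every d10 mouse, and the log2 fold change was -3.99 ± 0.71 (edgeR adjusted p = 0.026). The window of Ihh held none of the 11 motifs. That of Col9a1 (chr1:24177360-24177659, plus strand), which codes for a chain of collagen IX, held a CHR motif (TTTGAA). This motif was in 5.56% of windows of genes called lower, 20.8% of those of genes called higher and 12.4% of all windows. Col9a1 is the 1 gene called lower whose window held this motif. Both windows are shown as examples of cartilage genes called lower, with capitals for a motif. Foxa3, which fell more than Col9a1, also had a window, which is not shown.
Ihh: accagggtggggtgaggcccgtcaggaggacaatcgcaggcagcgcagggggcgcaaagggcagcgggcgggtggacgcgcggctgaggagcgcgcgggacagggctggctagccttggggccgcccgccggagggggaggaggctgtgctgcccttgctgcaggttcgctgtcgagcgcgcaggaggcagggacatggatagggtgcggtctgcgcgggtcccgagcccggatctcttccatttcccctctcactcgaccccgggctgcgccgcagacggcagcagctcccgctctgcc
Col9a1: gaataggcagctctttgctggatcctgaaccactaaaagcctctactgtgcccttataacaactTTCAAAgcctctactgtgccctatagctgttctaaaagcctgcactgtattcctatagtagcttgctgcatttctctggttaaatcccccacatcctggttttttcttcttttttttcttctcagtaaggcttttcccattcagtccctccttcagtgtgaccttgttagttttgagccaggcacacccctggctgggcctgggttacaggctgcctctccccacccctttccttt

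Col9a1 was at 48.1, 215 and 150 CPM on d10 and 10.3, 5.51 and 29.3 CPM on d14 (-3.19 ± 0.72, edgeR adjusted p = 0.0483). Its partners Col9a2 (-3.67) and Col9a3 (-3.37) and the main cartilage collagen Col2a1 (-2.97) did not overlap between days but were not called (edgeR adjusted p of 0.0526, 0.0631 and 0.0954). Col2a1 was at 1191, 4031 and 2018 CPM on d10 and 194, 125 and 607 CPM on d14. Comp, a matrix protein that bridges collagens, went from 381, 1074 and 762 CPM to 112, 85.4 and 223 CPM (-2.40 ± 0.52, edgeR adjusted p = 0.0447). Snorc, a chondrocyte membrane proteoglycan, went from 31, 151 and 114 CPM to 2.43, 2.13 and 18.6 CPM (-3.67 ± 0.83, edgeR adjusted p = 0.049). Acan, the proteoglycan aggrecan, missed the threshold (-2.89 ± 0.67, edgeR adjusted p = 0.0526), as did the hypertrophic collagen Col10a1, at 936, 1881 and 1388 CPM against 91.5, 20.5 and 420 CPM (-2.98 ± 0.95, edgeR adjusted p = 0.129).

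Of 14 chondrocyte regulators 13 were lower, and Ihh, Gdf5 and Foxa3 were called. Of the 14, 10 had no overlap, beside 1480 of all 16995 genes with d14 below. Gdf5, a BMP-family ligand of joint and cartilage progenitors, went from 3.94, 9.56 and 5.28 CPM to 0.608, 1.13 and 1.17 CPM (-2.69 ± 0.46, edgeR adjusted p = 0.0232). Antisense Gm15557 covers 40.3% of the exonic bases of Gdf5, and without a stated strand option reads of the pair cannot be told apart. Foxa3, a forkhead factor active in chondrocyte hypertrophy, fell from 0.540, 4.56 and 3.24 CPM to 0.221, 0.0593 and 0.424 CPM (-3.50 ± 0.76, edgeR adjusted p = 0.0442). The master regulators Sox9 (-1.12) and Sox5 (-1.38) had smaller differences without overlap and were not called (edgeR adjusted p of 0.0957 and 0.0526).

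Other genes called lower were of mixed function. Mgp, matrix Gla protein, an inhibitor of mineralization, went from 399, 727 and 666 CPM to 187, 256 and 247 CPM (-1.38 ± 0.26, edgeR adjusted p = 0.0307). Lmna, the nuclear lamin A/C of stiff tissues, was at 450, 467 and 417 CPM on d10 and 168, 226 and 274 CPM on d14 (-1.0 ± 0.18, edgeR adjusted p = 0.026). All d14 mice were below all d10 mice in both genes. Cspg4, the NG2 proteoglycan of pericytes, fell by 1.15 and Thy1, a surface antigen of fibroblasts and stroma, by 1.23 on the log2 scale. Also called lower were Rbp4 (-1.89), the retinol carrier, Aldh1a3 (-1.82), an enzyme of retinoic acid synthesis, Prkg2 (-1.73), a kinase needed for growth plate hypertrophy, the sulfatase Arsi (-1.70), the kinase Wnk4 (-2.43), the collagen processing enhancer Pcolce2 (-1.80) and the secreted Scube3 (-1.45). Aldh1a3, Thy1, Pcolce2 and Scube3 were chosen after their values were seen. Fibrous matrix genes were lower in 18 of 19 with a median of -0.437 and 0 called, among them Fn1 (-0.92, edgeR adjusted p = 0.0954) and Col6a3 (-0.74, edgeR adjusted p = 0.106).

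Bone matrix and osteoclast genes showed no call in edgeR's test. Of 14 bone matrix genes 5 were higher and 9 lower, the median was -0.144, and the sum was 111200, 112700 and 111100 CPM on d10 and 106500, 73830 and 127000 CPM on d14, so the d14 mice spread on both sides of d10. The bone sialoprotein gene Ibsp differed by -0.85 ± 0.39, Alpl, the phosphatase of mineralization, by -0.66 ± 0.35 and Bglap, osteocalcin, by 0.54 ± 0.30 (edgeR adjusted p of 0.268, 0.339 and 0.363), the last with a near-identical copy in Bglap2. The median was -0.28 for 15 osteoblast and osteocyte regulators and -0.0841 for 18 osteoclast genes, with 0 called in each. The osteoclast sum was 18080, 17640 and 22100 CPM on d10 and 16910, 12750 and 23520 CPM on d14.

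**Figure D3:**
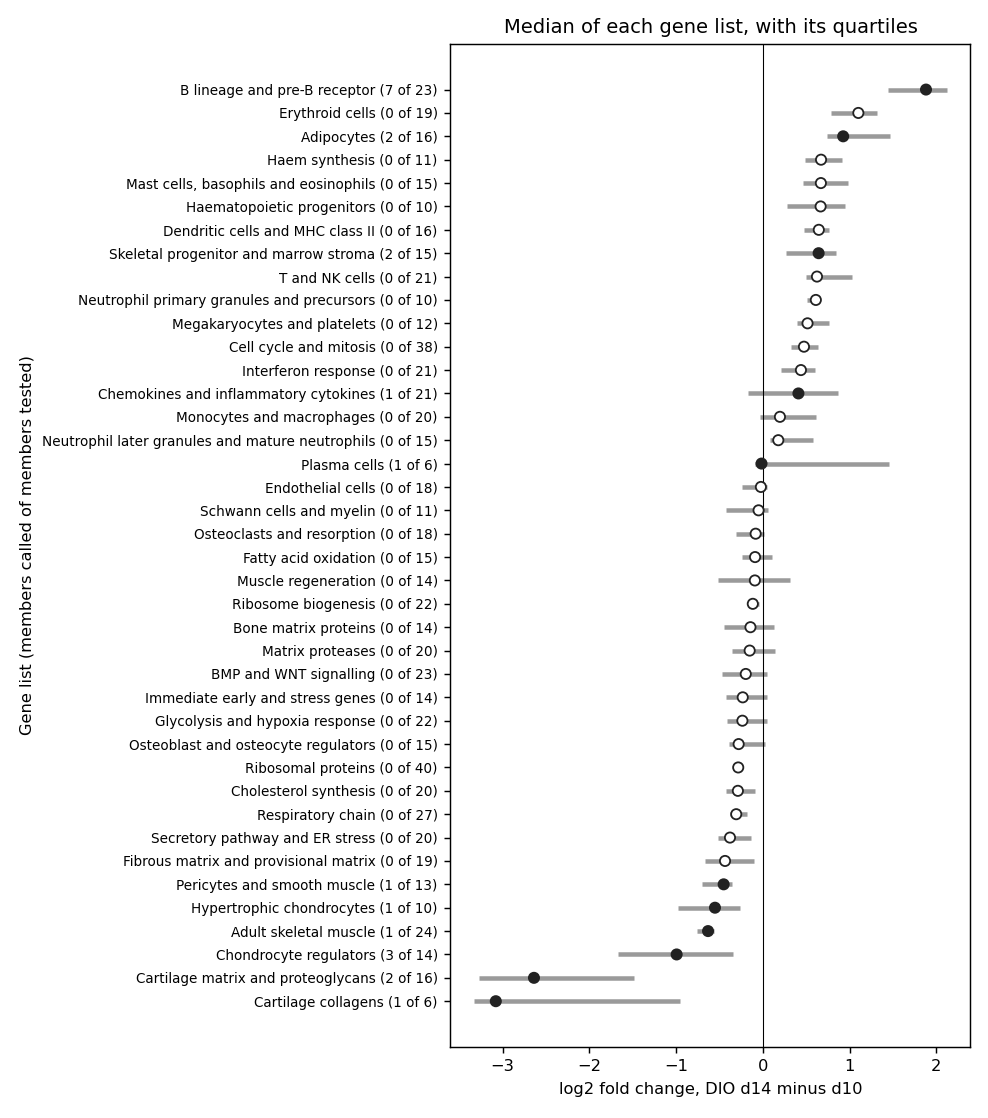
Median log2 fold change of each of 40 gene lists, d14 minus d10, with a bar from the lower to the upper quartile of its members. Filled points are lists with at least 1 called member, and the counts of called and tested members stand beside each name. B-lineage genes are at the top with a median of 1.88 and cartilage collagens at the bottom with -3.08.

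The muscle genes Myh7 and Tnnc1 fell. Myh7, the slow myosin heavy chain, had the largest called fall of all genes, from 12.8, 34.7 and 61.9 CPM to 0.498, 1.42 and 1.33 CPM (-5.07 ± 1.15, edgeR adjusted p = 0.049). Tnnc1, the slow and cardiac troponin C, went from 9.26, 26.7 and 57 CPM to 2.43, 4.39 and 3.39 CPM (-3.19 ± 0.71, edgeR adjusted p = 0.0467). The d10 mice differed from each other in both genes, and none overlapped with d14. Tnnt1, the slow skeletal troponin T, had its days just apart and was not called, at 16.3, 32.1 and 77.8 CPM against 3.65, 16.2 and 5.51 CPM (-2.32 ± 0.67, edgeR adjusted p = 0.101). Over the 24 genes of the muscle list, which holds Myh7 and Tnnt1 but not Tnnc1, the median was -0.633. Of these, 1 was called lower, beside 0.177% of all genes. In the lower direction 3 did not overlap, beside 1480 of all 16995 genes. Without d14 mouse 2 the median was -1.48 and without d14 mouse 3 it was -0.276, with 0 called in each. Ckm, muscle creatine kinase, showed the spread of the d14 mice, with 3916, 5595 and 3821 CPM on d10 and 1950, 5743 and 1000 CPM on d14 (-0.62, edgeR adjusted p = 0.728). Myh7 shares a near-identical stretch of 465 bases with Myh6.

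Erythroid and cell cycle genes leaned higher without a call. Over all 16995 genes, 2351 had no overlap with d14 above. All 19 erythroid genes were higher, 6 had no overlap, and the median was 1.10. Without d14 mouse 2, whose erythroid sum was the highest, the median was 0.445 with 15 of 19 genes higher. All 38 cell cycle genes were higher, 15 without overlap, with a median of 0.473, and the cytokinesis kinesin Kif23 came nearest to the threshold (0.72 ± 0.17, edgeR adjusted p = 0.054). Without d14 mouse 2 the cell cycle median was 0.197 with 34 of 38 genes higher. Outside the lists, and chosen after their values were seen, the DNA repair genes Fancd2 (1.09), Blm (1.18) and Topbp1 (0.70), the cell cycle brake Rb1 (0.85) and the cytokinesis factor Ect2 (1.03) were called higher (log2 fold changes, edgeR adjusted p between 0.0302 and 0.0431). Gclc, which makes the first enzyme of glutathione synthesis, rose from 19.4, 15.1 and 15.4 CPM to 34.1, 50.1 and 26.3 CPM (1.15 ± 0.19, edgeR adjusted p = 0.0232).

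The steps before and after were tested in the same fit. In edgeR's test, 2212 genes changed from d7 to d10 (13% of those tested) and 3335 from d14 to d21 (19.6%), beside the 129 from d10 to d14, and these steps share the d10 or d14 mice with the step described here. The order of the counts depended on the test, since limma-voom with quality weights called 2517 genes from d7 to d10, 2995 from d10 to d14 and 4326 from d14 to d21. A contrast of the step from d10 to d14 with the step from d14 to d21 called 0 genes in edgeR at an adjusted p under 0.05, with 1538 at an unadjusted p under 0.05. DESeq2 called 1 and limma-voom 348 in that contrast. Days d10, d14 and d21 are not evenly spaced, and no rate per day was computed.

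The levels of members over the days ran in opposite ways. Mean Pou2af1 was 2.72 CPM on d7, 7.61 on d10, 33.7 on d14 and 81.9 on d21, and the B-lineage sum was 137, 104, 260, 484, 1273 and 2217 CPM over the 6 days from d3 to d21. The sum of the marrow stroma list stood at 1114 CPM on d7, 1685 on d10, 2879 on d14 and 2836 on d21, so d21 was not above d14. Cxcl12 alone was at 277, 806, 1774 and 1700 CPM on these days, so the sum largely followed this gene. Cartilage matrix genes had their highest sum on d7, at 10140 CPM, and were at 1687, 354 and 201 CPM on d10, d14 and d21. Ihh went from a mean of 167 CPM on d7 to 1.72 CPM on d21. The erythroid sum reached 34800 CPM on d21.

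**Figure D4:**
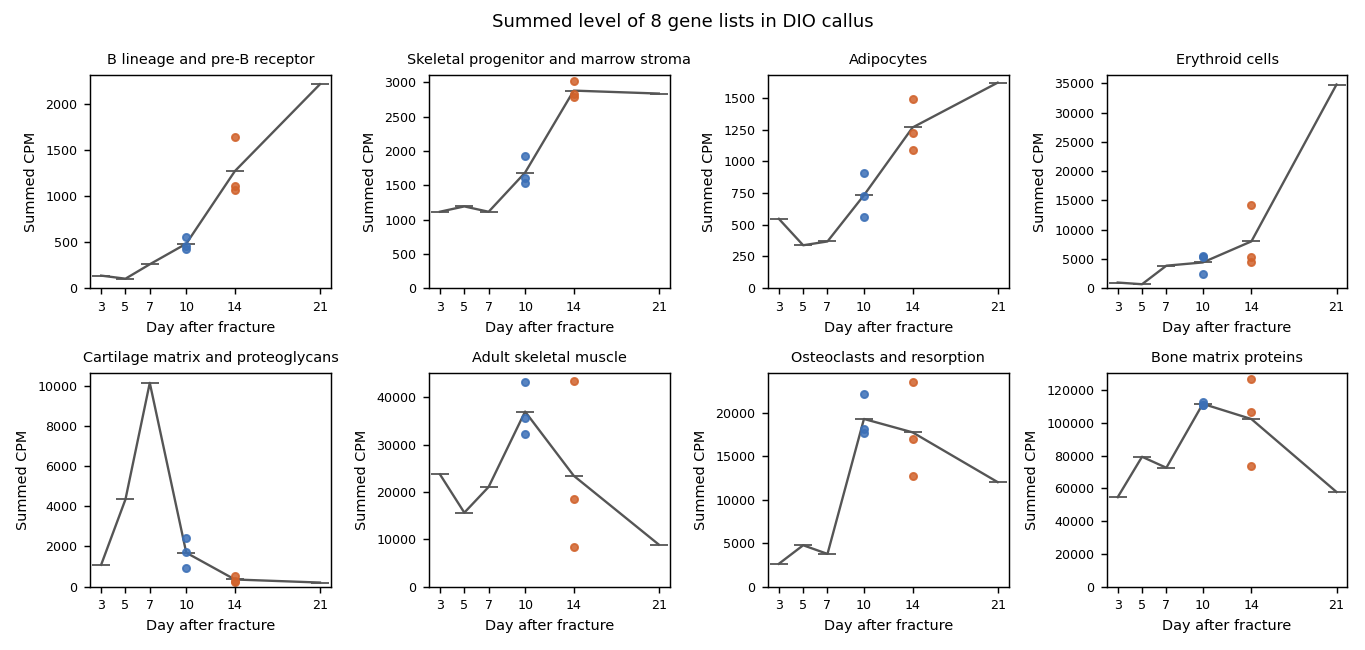
Summed level of 8 gene lists (CPM, linear axis from 0) against day after fracture in DIO callus. The line joins the means of 3 mice on each day, blue points are the d10 mice and orange points the d14 mice. B-lineage, stroma and adipocyte sums of the d14 mice lie above all d10 mice, the cartilage sum lies below, and the muscle, osteoclast and bone matrix sums overlap. Cxcl12 made up most of the stroma sum on d14.

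Fold changes ran with transcript length and GC content over all genes. With genes in 5 bins of equal size, the median log2 fold change went from -0.161 in the bin of shortest exonic length to 0.127 in the longest, and from 0.195 in the bin of lowest GC content to -0.207 in the highest. The length trend did not separate the days by mouse. Against the mean of the 6 libraries, the longest bin minus the shortest was 0.0984, -0.34 and -0.218 log2 CPM in the d10 mice. It was 0.321, 0.0601 and 0.00285 in the d14 mice. Genes that rose had a median exonic length of 4972.5 bases and 46.4% GC, those that fell 3126 bases and 54.5%, and all genes 3923 bases and 49.8%. With offsets that remove both trends, an alternative chosen after seeing the data, 103 genes were called and 78 of them were among the 129. The B-lineage list then had a median of 1.87 with 22 of 23 genes higher and 8 called and the cartilage collagens a median of -3.03 with 1 called. The cause of the trend was not tested.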

How the data were processed

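Bulk RNA-seq of fracture callus was used as the raw read counts per gene that the authors deposited, without normalization. From the submitters' processing notes and the methods, reads were demultiplexed with bcl2fastq, trimmed with BBDuk, aligned to GRCm38 with HISAT2 2.1.0 and counted with HTSeq. The HTSeq version, strand option and annotation are not given in the sources used here.

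Symbols, positions and lengths came from GENCODE M21 on GRCm38, which held 42548 of 43629 identifiers. The 18 DIO libraries were fitted together with edgeR 4.0.16 in R 4.3.3 (1 coefficient per day, TMM factors, filterByExpr, two-sided quasi-likelihood F-test, Benjamini-Hochberg adjustment over all genes tested, threshold 0.05), and standard errors were taken as the log2 fold change over the root of F. The authors tested with DESeq2, used here as an alternative (1.42.0) beside limma-voom (limma 3.58.1). Levels are CPM with TMM factors. The fit was tried on simulated counts, drawn for each gene on its own. Differences between mice in blood, muscle or cartilage content were not simulated. Replicates are different mice, numbered by the labels, and duplicates were looked for by chi-square per degree of freedom (17.4 to 127 between mice of a day). Depth of 13247122 to 18854426 counts per d10 or d14 library leaves genes of a few counts to counting error.

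Genes are named by rule: the 10 largest called changes in each direction without overlap and with a mean of at least 5 CPM, the 5 smallest p-values in each direction with the same mean, and in each of 40 gene lists the 4 smallest p-values and the first 2 members, besides markers the study used. Others are said to be chosen after their values were seen. Lists, motifs and the comparison itself were chosen with earlier results of these data known, and no list was tested as a set. Motifs were searched on both strands of the first RefSeq window listed for a gene. They were TGTGGT for RUNX, AGATAA for the GATA factors, TTCCCGC for E2F, TTTGAA for CHR, TATAAA for the TBP box, TGACGTCA for CREB, CCGGAAG for ETS, ACAAAG for SOX and TGACTCA for the AP-1 factors, besides the CCAAT box and MEF2 by name. BLAST 2.17.0 found a stretch of at least 100 bases with 95% identity in another gene for 31 of 95 genes given with values. These include Cxcr2, Csf3r, Klhl14, Siglecg, Itga4 and Fancd2, besides those named beside their values, and their counts are uncertain to that extent.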

Additional observations from a re-analysis of the deposited data

How the results depend on the processing

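In place of 129 genes (99 higher, 30 lower), DESeq2 called 552 (382 and 170), limma-voom with quality weights 2995 (1670 and 1325), and the test against a 1.5-fold change 1 (1 and 0, Pou2af1). No filter but 1 count gave 329 (237 and 92), the 6 libraries alone 213 (151 and 62), and all 30 libraries 2 (2 and 0). RLE and upper-quartile factors, the 0.5 CPM filter and the added length and GC offsets gave 122, 122, 124 and 103. With a mouse left out the count ran from 0 to 459, with 0 to 317 higher and 0 to 142 lower. For d7 to d10 and d14 to d21 the 1.5-fold threshold gave 757 and 389 genes, and with a mouse left out the counts were 1510 to 2219 and 1594 to 3261, the lowest without d10 mouse 2 and without d14 mouse 3 (1762 without d14 mouse 1). The contrast of the 2 steps called 0 genes, 1 with DESeq2, 348 with limma-voom and 1 with no filter, and 0 with any mouse left out. The cause of these differences was not tested, except that fewer mice enter where one is left out.

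The replicate numbers were not taken as pairs of mice, since they name different mice. Same-numbered d10 and d14 mice correlated at 0.153, 0.0887 and 0.0668 in their deviations from the day means. Each mouse correlated best with its own number (others -0.145 to 0.015), a hint from the data and not the design. With the replicate block 45 genes were called (35 higher, 10 lower), 44 of them among the 129.

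Over 1120 fits of the 66 called genes named here, 627 kept the call, 493 lost it and 0 changed direction. In genes without overlap, leaving a mouse out could not turn the direction. The list medians kept their sign in all 17 alternatives for 32 of the 40 lists, the exceptions being bone matrix, osteoclasts, endothelium, megakaryocytes, mature neutrophils, plasma cells, muscle regeneration and matrix proteases. The median of the B-lineage list stayed between 1.57 and 2.14, and that of the cartilage collagens between -4.02 and -2.54. Genes with few counts, such as Foxa3, are limited by depth.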

Other observations

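No gene of the metabolic and housekeeping lists was called. All 40 ribosomal protein genes had a lower mean on d14, with a median log2 difference of -0.285, and 2 had no overlap, and 26 of 27 respiratory chain genes were lower, with a median of -0.308. The medians were -0.38 for 20 genes of the secretory pathway, -0.289 for 20 of cholesterol synthesis, -0.237 for 22 of glycolysis and the hypoxia response, and -0.0908 for 15 of fatty acid oxidation. Of 21 interferon response genes 20 were higher, with a median of 0.438 and 4 without overlap. Over all 16995 genes, 2351 had no overlap with d14 above and 1480 with d14 below. All 11 haem synthesis genes were higher, with a median of 0.67 (0.25 without d14 mouse 2).

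Other medians, with 0 called members unless named, were 0.514 for 12 megakaryocyte genes (-0.0678 without d14 mouse 2), 0.665 for 10 of haematopoietic progenitors and 0.668 for 15 of mast cells, basophils and eosinophils (0.198 without that mouse). They were -0.553 for 10 hypertrophic chondrocyte genes (Ihh called), -0.453 for 13 of pericytes and smooth muscle (Cspg4 called), -0.0236 for 18 of endothelium, -0.0503 for 11 of Schwann cells and -0.0931 for 14 of muscle regeneration. BMP and WNT signalling had -0.198 over 23 genes, matrix proteases -0.153 over 20, immediate early genes -0.233 over 14 and ribosome biogenesis -0.117 over 22.

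Further called genes were Gm1966, annotated as an unprocessed pseudogene, which was at 2.78, 1.45 and 2.82 CPM on d10 and 13.8, 10.7 and 8.0 CPM on d14 (log2 fold change 2.2, edgeR adjusted p = 0.0232). Cecr2, a chromatin remodelling factor, went from 2.78, 4.64 and 3.66 CPM to 14.3, 30.6 and 9.75 CPM (2.3, edgeR adjusted p = 0.0232). Dhx58os, a transcript antisense to Dhx58, fell from 8.33, 18.7 and 11.5 CPM to 1.88, 0.77 and 2.6 CPM (-2.86, edgeR adjusted p = 0.0355), and R3hdml from 5.32, 12.2 and 10.2 CPM to 0.995, 0.119 and 3.07 CPM (-2.71, edgeR adjusted p = 0.049). The next 2 were chosen after their values were seen. Stk32b, a kinase gene with the second smallest p-value after Pou2af1, went from 1.54, 1.3 and 2.11 CPM to 0.166, 0.237 and 0.212 CPM (-2.97, edgeR adjusted p = 0.0227). Coro1b, the called gene whose days overlapped, was at 0.617, 9.42 and 8.37 CPM on d10 and 1.16, 0.889 and 0.212 CPM on d14.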
